A study of Mus musculus with 44 samples.

Results

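The 10 genes described here mark resident Kupffer cells, the macrophages that live in the liver sinusoids, and were followed across 44 mouse liver RNA-seq libraries. They were Clec4f, Vsig4, Timd4, Cd5l, Marco, Folr2, Cd163, Nr1h3, Id3 and Adgre1. They were taken as a named list, and all 10 were found once among the 35249 genes of the deposited count table. Each library came from the liver of 1 mouse, and the tissue was whole liver, so the genes were read against a background of hepatocyte RNA. Wild-type (WT) mice were set beside Ripk3 knockout mice (Ripk3KO, Ripk3-/-) and Mlkl knockout mice (MlklKO, Mlkl-/-). Ripk3 is a kinase and Mlkl its membrane-permeabilising target in necroptosis, a lytic form of cell death, and the design asks how the livers change on the diets when that pathway is blocked. All mice were 2 months old when the diets began and stayed on them for 6 months. The control diet was normal chow, and the other diets were choline-deficient low-fat (CD-LFD) and choline-deficient high-fat (CD-HFD). The WT groups held 6 libraries on each diet. The Ripk3KO groups held 6 on control diet, 3 on CD-LFD and 4 on CD-HFD, and the MlklKO groups held 6, 4 and 3. The labels give a genotype and a diet for each mouse and no strain, sex, litter or batch. They do not say whether a deletion is limited to a cell type.

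Kupffer cells are seeded before birth from yolk sac and fetal liver precursors and then largely maintain themselves by division. Endothelial, stellate and hepatocyte signals, among them Notch ligands, BMP and TGF-beta family ligands, colony stimulating factor and sterol ligands of the liver X receptor, hold them in their tissue-specific state. When resident cells are lost, monocytes from the blood enter the niche and take on part of that programme, with Clec4f gained before Timd4. In steatohepatitis, a further macrophage state with lipid-handling genes such as Trem2 and Gpnmb appears in the liver.

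The deepest library, WT CD-LFD replicate 3, had a total of 88204703 counts, and the other 43 had between 2476268 and 12471844. Levels are given as CPM, a gene's share of a library's counts scaled with TMM factors, and a difference between groups as a log2 change with its standard error from edgeR's quasi-likelihood test. Adjusted p-values are Benjamini-Hochberg values over 14862 genes, and a gene was called at an adjusted p under 0.05. Ripk3 counts were 0 to 2 in 12 of the 13 Ripk3KO libraries, and the library labelled Ripk3KO control replicate 5 held 9. Mlkl was lower in the MlklKO groups than in WT on each diet but was not at 0. The library labelled MlklKO CD-HFD replicate 1 held 12.5 CPM of Mlkl, against 4.83 and 2.80 CPM in the other MlklKO CD-HFD libraries and 14.3 to 17.7 CPM in WT CD-HFD. Genes of the daily clock also moved with the groups. Split at the largest gap in the level of Arntl relative to Dbp, 4 of 6 WT control, 6 of 6 WT CD-LFD and 1 of 6 WT CD-HFD libraries lay above it, and all knockout libraries lay below.

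The upstream sequences of 4 members are shown because these 4 fell in WT CD-HFD livers by the largest amounts. Each line holds the 250 bases before the RefSeq start of the gene in build GRCm38.p6, 5′ to 3′ on the gene's own strand. Capitals mark a core of PU.1 sites (GAGGAA or TTCCTC), the factor that all macrophages depend on, and a nuclear receptor half-site (AGGTCA or TGACCT), of the kind that the liver X receptor reads in pairs. The windows lie at chr11:46810549-46810798 on the plus strand for Timd4, at chr6:124304401-124304650 on the plus strand for Cd163, at chr1:120505025-120505274 on the minus strand for Marco and at chr6:83656117-83656366 on the minus strand for Clec4f.
Timd4: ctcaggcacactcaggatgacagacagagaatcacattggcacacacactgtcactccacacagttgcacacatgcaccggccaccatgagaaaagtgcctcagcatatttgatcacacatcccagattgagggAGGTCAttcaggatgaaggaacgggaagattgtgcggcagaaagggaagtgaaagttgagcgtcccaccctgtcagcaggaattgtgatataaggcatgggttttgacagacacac
Cd163: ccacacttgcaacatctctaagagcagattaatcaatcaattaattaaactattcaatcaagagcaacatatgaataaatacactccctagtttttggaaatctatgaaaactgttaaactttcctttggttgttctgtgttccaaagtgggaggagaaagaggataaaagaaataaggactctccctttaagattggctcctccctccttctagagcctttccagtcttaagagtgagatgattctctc
Marco: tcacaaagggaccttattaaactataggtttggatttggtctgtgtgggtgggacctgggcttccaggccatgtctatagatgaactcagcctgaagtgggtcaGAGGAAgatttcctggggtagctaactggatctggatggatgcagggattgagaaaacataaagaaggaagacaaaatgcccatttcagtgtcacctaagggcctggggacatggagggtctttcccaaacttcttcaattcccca
Clec4f: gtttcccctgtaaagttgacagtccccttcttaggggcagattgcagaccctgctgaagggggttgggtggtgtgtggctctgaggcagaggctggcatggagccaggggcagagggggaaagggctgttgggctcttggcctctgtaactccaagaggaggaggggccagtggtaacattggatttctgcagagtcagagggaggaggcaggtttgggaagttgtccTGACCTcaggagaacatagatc
The half-site stood 1 time each in the Timd4 and Clec4f windows, and the PU.1 core 1 time in the Marco window. The Cd163 window held neither. RefSeq windows were at hand for 9 of the 10 members, and Adgre1 had no entry. Over the same 250 upstream bases of all 32851 promoter windows at hand, 23.3% held the PU.1 core and 14.02% the half-site on either strand. Among the other members, the same letters of the PU.1 core stood in the windows of Vsig4, Cd5l and Id3.

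In WT control livers, the members spanned a wide range of levels. Per kilobase of exon, Id3 (67.5 CPM per kb) and Nr1h3 (51.4) were highest, followed by Clec4f (32.1) and Cd5l (20.2). Vsig4 (7.18), Marco (6.02), Timd4 (2.23), Adgre1 (2.14) and Cd163 (1.79) were lower, and Folr2 was lowest at 0.475 CPM per kb. Id3 and Nr1h3 are also expressed in hepatocytes and other liver cells, so their levels in whole liver are not those of Kupffer cells alone. From Vsig4 to Cd163, each step in that order was smaller than the SD of the higher gene over the 6 mice.

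**Figure D1:**
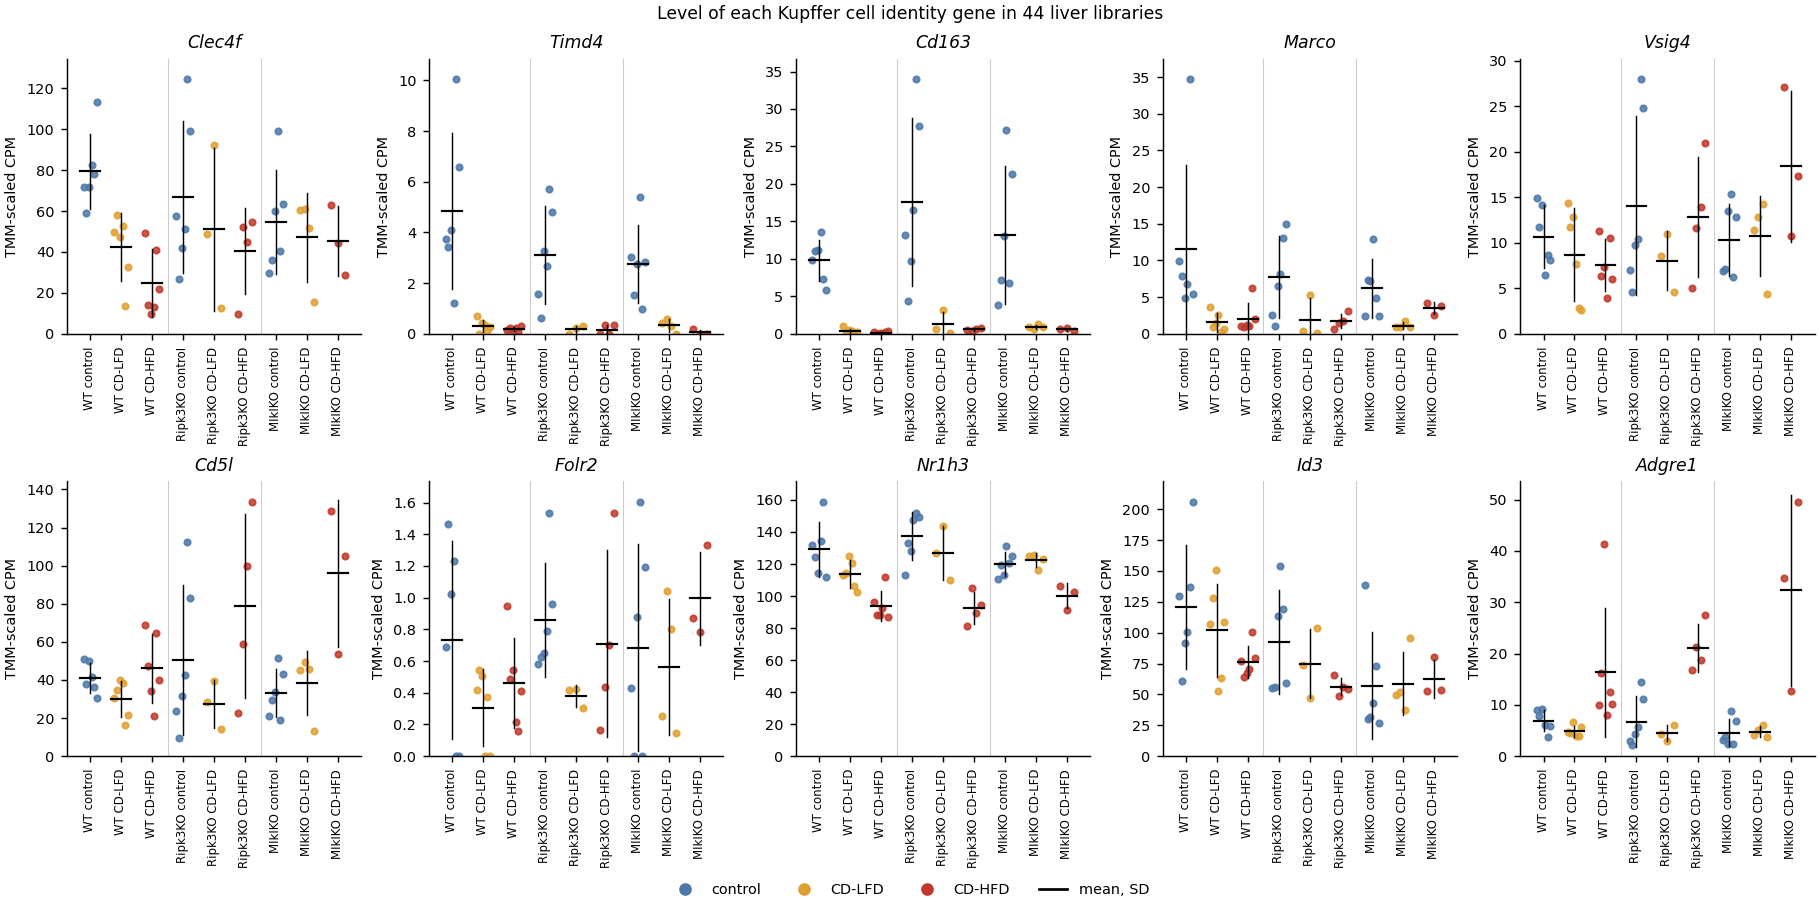
Level of each of the 10 genes in every library (y axis, TMM-scaled CPM, from 0, a separate scale per gene) over the 9 genotype-by-diet groups (x axis), with points for libraries and bars for mean and SD. Timd4 and Cd163 lie near 0 in all groups on either choline-deficient diet, while Adgre1 is highest in the CD-HFD groups, with means of 16.4, 21.1 and 32.4 CPM.

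Among the scavenging and recognition receptors, Timd4 and Cd163 were nearly lost on both choline-deficient diets in all 3 genotypes. Timd4 encodes a receptor for phosphatidylserine on dying cells and marks long-lived resident macrophages. Its level in WT control livers ran from 1.23 through a median of 3.91 to 10.04 CPM. In WT CD-LFD it ran from 0 through 0.300 to 0.698 CPM, and in WT CD-HFD from 0.0806 through 0.176 to 0.310 CPM. Every WT library on a choline-deficient diet lay below every WT control library. No WT CD-HFD library held more than 3 Timd4 counts, so the size of that fall is a bound, at least 11.96-fold when set against 3 counts per library. The fitted log2 change was −4.60 ± 0.59 (SE, adjusted p = 2.22e-08, edgeR) on CD-HFD and −3.74 ± 0.54 (adjusted p = 1.36e-06) on CD-LFD, and where counts are this low it depends on the prior count. In whole liver, fewer Kupffer cells and less RNA of a gene per Kupffer cell cannot be told apart, here or in the results that follow. Among the 2 control and 5 CD-HFD libraries below the clock gap the fall was also called, at −3.48 (adjusted p = 0.00124).

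The knockouts lost Timd4 as well. Ripk3KO control livers ran from 0.628 through 2.97 to 5.73 CPM. Ripk3KO CD-LFD livers held 0, 0.211 and 0.302 CPM, and Ripk3KO CD-HFD livers 0, 0.329, 0 and 0.341 CPM. These groups did not overlap with their controls, with log2 changes of −3.82 ± 0.80 (adjusted p = 0.000543) and −4.02 ± 0.69 (adjusted p = 6.75e-06) by edgeR. MlklKO control livers ran from 0.966 through 2.79 to 5.40 CPM. MlklKO CD-LFD livers held 0.424, 0.596, 0.321 and 0 CPM, and MlklKO CD-HFD livers 0.174, 0 and 0 CPM. The fall was again without overlap, at −2.95 ± 0.65 (adjusted p = 0.00051) on CD-LFD. On CD-HFD it was at least 5.27-fold, with a fitted change of −5.48 ± 1.02 (adjusted p = 2.85e-05). The fitted sizes moved by over 1.5 times with single libraries at these counts. Without Ripk3KO CD-HFD replicate 5 the change was −4.63, without Ripk3KO CD-LFD replicate 3 it was −4.74, and without MlklKO CD-HFD replicate 1 it was −7.64, all still called.

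Cd163 encodes the receptor that clears haemoglobin bound to haptoglobin. In WT control livers it ran from 5.87 through 10.4 to 13.5 CPM. In WT CD-LFD livers it ran from 0 through 0.300 to 0.977 CPM, and in WT CD-HFD livers from 0 through 0.175 to 0.310 CPM, with no overlap between either diet and control. The CD-HFD libraries held 0 to 3 counts, and the fall was at least 24.1-fold against 3 counts per library. The fitted log2 changes were −5.83 ± 0.65 on CD-HFD (adjusted p = 1.01e-09) and −4.63 ± 0.57 on CD-LFD (adjusted p = 6.35e-08) by edgeR.

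Cd163 fell on both diets in both knockouts. Ripk3KO livers ran from 4.40 through 14.9 to 33.9 CPM on control diet, and held 0.625, 3.16 and 0.0755 CPM on CD-LFD and 0.499, 0.329, 0.699 and 0.768 CPM on CD-HFD. The changes were −4.10 ± 0.70 (adjusted p = 3.68e-05) and −4.86 ± 0.63 (adjusted p = 3.07e-08). MlklKO livers ran from 3.88 through 10.1 to 27.1 CPM on control diet, and held 0.933, 0.596, 1.28 and 0.894 CPM on CD-LFD and 0.696, 0.783 and 0.400 CPM on CD-HFD. The changes were −3.83 ± 0.60 (adjusted p = 6.03e-06) and −4.39 ± 0.73 (adjusted p = 4.42e-06) by edgeR, and none of the 6 diet groups overlapped with its control. On CD-LFD in Ripk3KO the size rested on single libraries, at −6.12 without replicate 2 and −3.23 without replicate 3, both still called.

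Marco, a class A scavenger receptor for bacteria and particles, fell in 5 of the 6 diet comparisons. WT control livers ran from 4.94 through 7.29 to 34.7 CPM, WT CD-LFD livers from 0.247 through 1.16 to 3.63 CPM and WT CD-HFD livers from 0.974 through 1.14 to 6.20 CPM. On CD-LFD all 6 libraries lay below all 6 controls, and on CD-HFD 5 of 6 did. The log2 change was −2.83 ± 0.62 on CD-LFD (adjusted p = 0.000697) and −2.33 ± 0.59 on CD-HFD (adjusted p = 0.00123) by edgeR. WT control replicate 5, the highest value, carried part of the size. Without it the changes were −2.19 and −1.69, both called, and without WT CD-HFD replicate 5 the CD-HFD change was −3.09. Among the WT libraries below the clock gap the CD-HFD change of Marco was −1.57 and was not called (adjusted p = 0.104), while over all libraries with clock phase as a covariate it was −2.16 and called (adjusted p = 0.0167).

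In Ripk3KO livers Marco ran from 1.05 through 7.35 to 14.9 CPM on control diet. It held 0.417, 5.27 and 0.151 CPM on CD-LFD and 0.666, 1.54, 1.75 and 3.07 CPM on CD-HFD, and both diets overlapped with control. The CD-HFD change was −2.07 ± 0.69 (adjusted p = 0.0122). The CD-LFD change of −2.23 ± 0.83 (adjusted p = 0.0466) was lost when any of 6 libraries was left out, with adjusted p up to 0.304 without CD-LFD replicate 3, and was −1.84 (adjusted p = 0.0937) with the replicate number as a block. It was also not called with library totals only (−1.96, adjusted p = 0.0612) or with only the compared groups fitted (−2.19, adjusted p = 0.127). In MlklKO livers Marco ran from 2.37 through 6.00 to 12.98 CPM on control diet, and its 4 CD-LFD libraries (0.933, 0.894, 1.76 and 0.894 CPM) lay below all controls. That change was −2.49 ± 0.76 (adjusted p = 0.0092). The 3 MlklKO CD-HFD libraries held 4.18, 2.61 and 3.73 CPM, all above the 4 CD-LFD libraries, and neither their change from control (−0.84 ± 0.73, adjusted p = 0.361) nor that from CD-LFD (1.65 ± 0.87, adjusted p = 0.166) was called. With only the compared groups fitted, the latter was 1.62 and called (adjusted p = 0.00437).

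Clec4f, a galactose-binding lectin found on Kupffer cells and used as their most specific marker in the mouse, fell in WT CD-HFD livers and stayed readily measurable. WT control livers ran from 59.1 through a median of 74.9 to 113 CPM, WT CD-LFD livers from 13.4 through 48.6 to 58.0 CPM and WT CD-HFD livers from 9.71 through 18.1 to 49.2 CPM. Neither diet group overlapped with control. The mean was 3.20-fold lower on CD-HFD and 1.88-fold lower on CD-LFD. Only the former was called, at −1.68 ± 0.44 (adjusted p = 0.00154) against −0.91 ± 0.43 (adjusted p = 0.107) by edgeR. With only the compared groups fitted, the CD-LFD change was −0.88 and called (adjusted p = 0.045). Among the WT libraries below the clock gap the CD-HFD change of Clec4f was −1.29 and was not called (adjusted p = 0.0819), while over all libraries with clock phase as a covariate it was −1.89 and called (adjusted p = 0.00524).

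Knockout livers held Clec4f levels that overlapped between diets. Ripk3KO control livers ran from 26.6 through 54.2 to 124 CPM, against 48.7, 92.1 and 12.4 CPM on CD-LFD and 9.49, 52.4, 45.1 and 54.7 CPM on CD-HFD. MlklKO control livers ran from 29.5 through 50.2 to 99.0 CPM, against 60.5, 60.8, 51.8 and 15.3 CPM on CD-LFD and 62.9, 44.2 and 28.5 CPM on CD-HFD. The CD-HFD changes were −0.72 ± 0.48 in Ripk3KO (adjusted p = 0.226) and −0.28 ± 0.53 in MlklKO (adjusted p = 0.692). Neither differed from the WT change by the test of the interaction, at 0.96 ± 0.63 (adjusted p = 0.632) and 1.39 ± 0.66 (adjusted p = 0.245) by edgeR.

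Vsig4, the complement receptor that captures C3b-coated particles, was not called in any diet comparison with all groups fitted and TMM scaling. WT means were 10.7 ± 3.45, 8.69 ± 5.11 and 7.55 ± 2.83 CPM (SD, n = 6) on control, CD-LFD and CD-HFD. The CD-HFD change was −0.53 ± 0.41 in WT (adjusted p = 0.292), −0.11 ± 0.43 in Ripk3KO (adjusted p = 0.853) and 0.81 ± 0.47 in MlklKO (adjusted p = 0.153). In MlklKO it was 0.91 and called (adjusted p = 0.0418) with only the compared groups fitted, and 1.32 and called (adjusted p = 0.0133) with library totals only. MlklKO CD-HFD livers held 27.2, 10.7 and 17.3 CPM, of which the first is the library labelled MlklKO CD-HFD replicate 1, with a mean of 18.4 ± 8.28 CPM (SD, n = 3).

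Folr2, a folate receptor of resident tissue macrophages, was close to the limit of these libraries. Its group means ran from 0.306 to 0.995 CPM, and at most 18 counts were seen in any library but the deepest, which held 44. It did not pass the filter on low counts, so 9 of the 10 members were tested. With no filter its change in WT CD-HFD was −0.73 (adjusted p = 0.500, edgeR), and no comparison called it. In the GENCODE M21 annotation its exons overlap those of Gm10602 on the opposite strand.

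**Figure D2:**
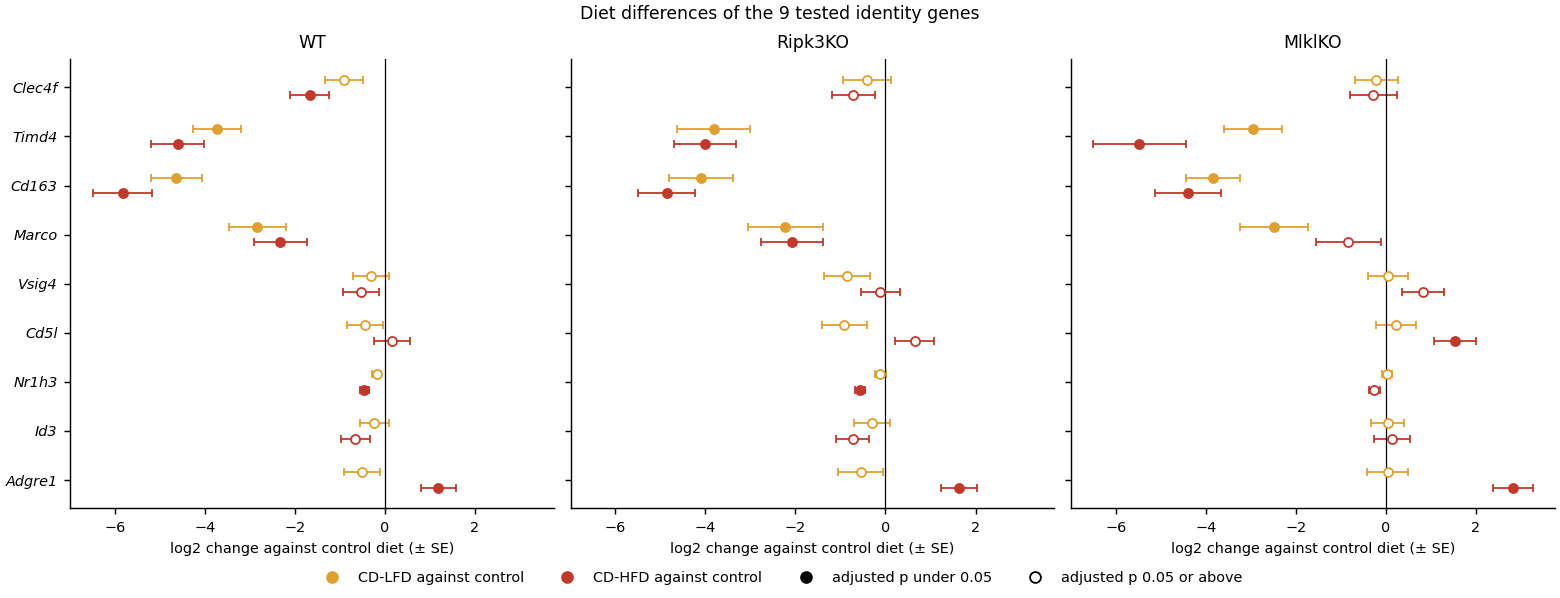
Log2 change of each tested gene on CD-LFD and CD-HFD against the control diet of the same genotype (x axis, with SE), in 3 panels by genotype, with filled points for an adjusted p under 0.05. Timd4 and Cd163 are filled at −2.95 or below in all 3 panels, and Adgre1 is filled on the right in CD-HFD only, at 1.18, 1.63 and 2.82.

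Cd5l, a secreted inhibitor of apoptosis in macrophages and a target of the liver X receptor, was not called against control in WT, where Timd4, Cd163 and Marco fell. WT control livers ran from 30.3 through 39.8 to 50.9 CPM, and WT CD-HFD livers from 21.3 through 43.7 to 68.8 CPM, with a change of 0.16 ± 0.40 (adjusted p = 0.774). WT CD-LFD livers ran from 16.2 through 32.6 to 39.9 CPM, and their change was −0.45 ± 0.40 (adjusted p = 0.425). In MlklKO, the 3 CD-HFD libraries held 129, 53.6 and 105 CPM, all above the highest of 6 controls (51.5 CPM). The rise was 1.53 ± 0.46 (adjusted p = 0.00611, edgeR). It was 1.24 without the library labelled MlklKO CD-HFD replicate 1, where it was no longer called (adjusted p = 0.0525). In Ripk3KO, the CD-HFD libraries held 22.6, 58.7, 99.9 and 134 CPM against 9.43 through 37.2 to 112 CPM on control diet, and the change of 0.65 ± 0.43 was not called (adjusted p = 0.223). It was 1.17 and called (adjusted p = 0.019) with library totals only, and 1.06 and called (adjusted p = 0.0413) without Ripk3KO control replicate 5. Against CD-LFD, Cd5l was 1.56 (adjusted p = 0.0664) in Ripk3KO and 1.32 (adjusted p = 0.0558) in MlklKO on CD-HFD. Both were called with DESeq2 (1.57, adjusted p = 0.0327, and 1.35, adjusted p = 0.0452), with no filter, with library totals only and with only the compared groups fitted. The difference of the CD-HFD effect between MlklKO and WT was 1.38 ± 0.61 and was not called (adjusted p = 0.206).

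Adgre1 encodes F4/80, the surface protein most often used to stain mouse macrophages, and it rose on CD-HFD in all 3 genotypes. WT control livers ran from 3.65 through 6.98 to 9.19 CPM, WT CD-LFD livers from 3.84 through 4.64 to 6.66 CPM and WT CD-HFD livers from 8.01 through 11.3 to 41.3 CPM. All 6 CD-HFD libraries lay above all 6 on CD-LFD, and 5 of 6 above all controls. The change was 1.18 ± 0.38 against control (adjusted p = 0.00969) and 1.70 ± 0.37 against CD-LFD (adjusted p = 0.000708) by edgeR. WT CD-HFD replicate 3, at 41.3 CPM, decided the former. Without it the change was 0.66 and was not called (adjusted p = 0.122), while the change against CD-LFD was 1.18 and still called. Among the WT libraries below the clock gap, the change against control was 0.73 and was not called (adjusted p = 0.296). With clock phase as a covariate over all libraries it was 1.53 and called (adjusted p = 0.00133).

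In the knockouts the rise of Adgre1 was separated from both other diets. Ripk3KO CD-HFD livers held 16.8, 21.3, 18.7 and 27.5 CPM, above controls at 2.09 through 4.95 to 14.5 CPM and above CD-LFD at 4.37, 2.95 and 6.04 CPM. The change was 1.63 ± 0.41 against control (adjusted p = 0.00101) and 2.19 ± 0.52 against CD-LFD (adjusted p = 0.0056; 0.0536 without CD-LFD replicate 2). MlklKO CD-HFD livers held 34.8, 12.7 and 49.6 CPM, above controls at 2.35 through 3.46 to 8.75 CPM and above CD-LFD at 4.07, 5.07, 6.09 and 3.72 CPM. The change was 2.82 ± 0.44 against control (adjusted p = 1.2e-06) and 2.78 ± 0.49 against CD-LFD (adjusted p = 5.93e-05) by edgeR. Without the library labelled MlklKO CD-HFD replicate 1 these were 2.73 and 2.70, both called. On CD-LFD, Adgre1 was not called against control in WT, Ripk3KO or MlklKO.

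Of the transcription regulators, Nr1h3 encodes liver X receptor alpha, the sterol-sensing nuclear receptor that Kupffer cells need to keep their identity. It was 129 ± 17.1, 114 ± 8.59 and 94.0 ± 9.41 CPM (SD, n = 6) in WT on control, CD-LFD and CD-HFD, and 5 of 6 CD-HFD libraries lay below all controls. The CD-HFD change was −0.46 ± 0.10 (adjusted p = 0.000202) in WT and −0.57 ± 0.11 (adjusted p = 5.84e-05) in Ripk3KO, and −0.26 ± 0.12 (adjusted p = 0.0792) in MlklKO, by edgeR. The 4 Ripk3KO CD-HFD libraries (81.2, 105, 89.4 and 94.7 CPM) lay below all 6 controls (113 to 152 CPM), as did the 3 MlklKO CD-HFD libraries (106, 91.5 and 103 CPM against 111 to 131 CPM). With RLE size factors the WT and Ripk3KO falls were −0.39 (adjusted p = 0.000909) and −0.48 (adjusted p = 0.000288), and DESeq2 called both as well. When libraries were scaled by their totals only, the Nr1h3 changes were 0.04 in WT, −0.04 in Ripk3KO and 0.27 in MlklKO, where the last was called higher (adjusted p = 0.0388). That scaling moved the median of all genes from −0.07 to 0.43 in the WT comparison, a shift close to that of Nr1h3. Against CD-LFD, Nr1h3 was −0.27 ± 0.10 in WT (adjusted p = 0.042) and −0.45 ± 0.13 in Ripk3KO (adjusted p = 0.0214), calls that were lost without any of 9 WT libraries or any of 4 Ripk3KO libraries. Both were also lost with library totals only (−0.08, adjusted p = 0.561, and −0.22, adjusted p = 0.237) and with no filter (adjusted p = 0.237 and 0.247). The WT call was lost as well with RLE size factors (adjusted p = 0.0783), the clock covariate (0.139) and only the compared groups fitted (0.0583). In M21 its exons overlap those of Gm13783 on the same strand.

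Id3, an inhibitor of helix-loop-helix factors that BMP and TGF-beta family signals induce and that Kupffer cells require, was not called in any diet comparison. WT livers ran from 60.6 through 115 to 206 CPM on control diet, from 52.6 through 108 to 151 CPM on CD-LFD and from 64.4 through 73.7 to 100 CPM on CD-HFD. The CD-HFD change was −0.66 ± 0.32 (adjusted p = 0.0901; −0.80 and 0.0454 without WT control replicate 2) in WT, −0.72 ± 0.37 (adjusted p = 0.104) in Ripk3KO and 0.13 ± 0.40 (adjusted p = 0.809) in MlklKO. The lone genotype difference among the members was in Id3. On control diet, MlklKO livers held 139, 29.97, 31.4, 43.0, 73.3 and 26.8 CPM, and the change from WT was −1.08 ± 0.33 (adjusted p = 0.0121, edgeR). It was −0.87 (adjusted p = 0.0558) without WT control replicate 6, and −0.46 (adjusted p = 0.547) among the libraries below the clock gap, which leave 2 of the WT controls. With clock phase as a covariate it was −0.76 (adjusted p = 0.237), without WT control replicates 5 and 6 −0.75 (adjusted p = 0.13), and with only the compared groups fitted −1.13 (adjusted p = 0.0678).

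Counted together, 1 of the 9 tested members rose and 5 fell in WT CD-HFD against control, where 47.7% of all genes were called (23.5% higher and 24.1% lower). The median change of the members was −0.66, beside −0.07 for all genes. In WT CD-LFD 3 fell and none rose, with 27.7% of all genes called and 14% lower. Between CD-HFD and CD-LFD 1 member was higher and 1 lower, where 21.1% of all genes were called, 13.7% higher and 7.4% lower. In Ripk3KO CD-HFD against control 1 rose and 4 fell, with 46.3% of all genes called, 24.6% higher and 21.7% lower. Ripk3KO CD-LFD called 3 lower, with 24.1% of all genes called and 10.1% lower. Ripk3KO CD-HFD against CD-LFD called 1 higher and 1 lower, with 8.83% of all genes called, 5.75% higher and 3.08% lower. Under library totals only, Cd5l was also called higher there and Nr1h3 was not called, beside 1360 of all genes higher and 171 lower. In MlklKO CD-HFD against control 2 rose and 2 fell, with 45.2% of all genes called, 24.9% higher and 20.3% lower. Scaling by library totals only also called Vsig4 and Nr1h3 higher there, beside 6364 of all genes higher in place of 3699. MlklKO CD-LFD called 3 lower, with 37.9% of all genes called and 18.3% lower, and CD-HFD against CD-LFD called 1 higher, with 23.7% called and 14.6% higher. The 3 comparisons within a genotype share libraries pairwise.

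Between genotypes on the same diet, Id3 in MlklKO control livers was the lone call, with 27.1% of all genes called there and 14.1% lower. No member was called in Ripk3KO against WT on control diet, where 4.47% of all genes were. On CD-LFD none was called in Ripk3KO (1.1% of all genes) or MlklKO (2.56%), and on CD-HFD none in Ripk3KO (0.377%) or MlklKO (0%). In these 5 comparisons, edgeR gave 0, 0, 1, 0 and 3 members with an unadjusted p under 0.05, and DESeq2 called 0 in each. In MlklKO CD-HFD the largest of these differences was Vsig4 at 1.27 ± 0.46 (adjusted p = 0.569). The differences of the diet effects called no member either. For the CD-HFD effect 0.478% of all genes were called in Ripk3KO and 4.12% in MlklKO, and for the CD-LFD effect 0.0269% and 8.45%. Unadjusted p-values under 0.05 numbered 4 of 9 for the CD-HFD effect in MlklKO and 0 for the others, and DESeq2 called 0. The largest of those 4 was Adgre1 at 1.63 ± 0.59 (adjusted p = 0.101), which was 2.16 and called (adjusted p = 0.017) without WT CD-HFD replicate 3.

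Other genes of macrophages rose while Timd4, Cd163 and Marco fell. In WT CD-HFD, where 23.5% of all genes were higher, 11 of 12 pan-macrophage genes rose, among them Itgb2 (4.2003), Ctss (3.94), Cd68 (3.81) and Csf1r (1.54), the receptor for colony stimulating factor, each a log2 change. Their summed level ran from 178 to 317 CPM in WT control, from 284 to 450 in WT CD-LFD and from 845 to 1790 in WT CD-HFD. Of 12 monocyte genes, 10 were tested and 9 rose, among them Cx3cr1 (5.53), Itgam (5.19) and Ccr2 (3.43), the chemokine receptor that brings monocytes out of the marrow. The summed level of the whole list ran from 496 to 1869 CPM in WT control and from 573 to 985 CPM in WT CD-HFD, most of it Fn1, which hepatocytes also express. Without Fn1 it ran from 6.07 to 11.4 CPM in WT control and from 73.9 to 116 CPM in WT CD-HFD. In the knockouts it ran from 5.45 to 20.7 and from 82.3 to 102 CPM (Ripk3KO) and from 5.37 to 16.8 and from 78.2 to 113 CPM (MlklKO). Of 12 genes of lipid-associated macrophages, 11 rose, among them Trem2 (6.73), a lipid receptor, Gpnmb (9.77), a glycoprotein of lysosomes, and Mmp12 (9.92), an elastase. Lists of other leukocytes moved in the same comparison. Of 6 T cell genes 5 rose, and their summed level ran from 2.44 to 5.02 CPM in WT control and from 11.6 to 28.01 CPM in WT CD-HFD. Of 8 dendritic cell genes 6 rose and 1 fell, with sums from 7.99 to 30.5 and from 24.8 to 32.3 CPM. Of 8 neutrophil genes 4 were tested and 2 rose, with sums from 0.307 to 10.7 and from 4.25 to 12.1 CPM. The part of these cell types in the members' levels was not tested.

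**Figure D3:**
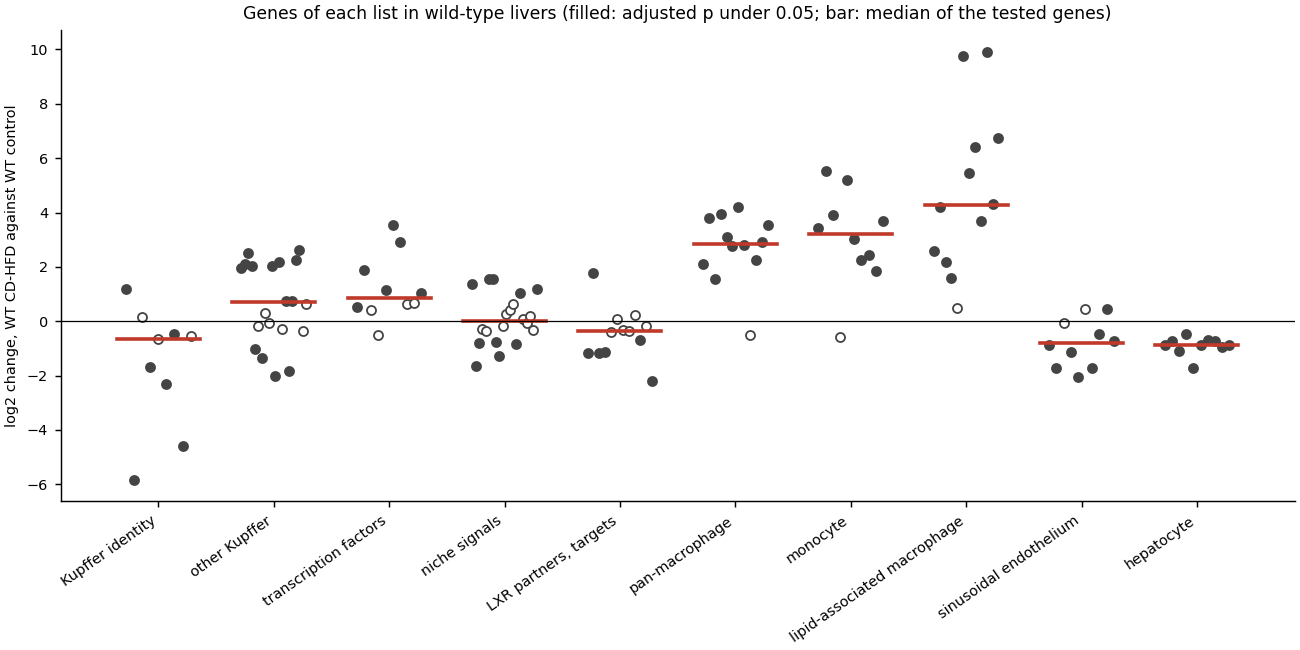
Log2 change in WT CD-HFD against WT control (y axis) of each tested gene in 10 lists (x axis), with filled points for an adjusted p under 0.05 and red bars for the median of each list. The identity genes have a median of −0.66, below the medians of the pan-macrophage (2.86), monocyte (3.23) and lipid-associated macrophage (4.27) lists.

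A further 20 genes enriched in Kupffer cells did not share 1 direction. In WT CD-HFD 10 rose, 4 fell and 6 were not called, with a median of 0.69, where 23.5% of all genes were higher and 24.1% lower. The 4 that fell were Fcna (−2.01), a ficolin, Kcna2 (−1.81), a potassium channel, Cdh5 (−1.35), which endothelial cells also express, and C6 (−1.03), a complement component that hepatocytes also make. The 10 that rose included Slc11a1 (2.62), a metal transporter of phagosomes, C1qb (2.52), a chain of the complement starter C1q, Siglec1 (2.25), a sialic acid receptor, and Hmox1 (2.16), which breaks down haem. In WT CD-LFD 5 rose and 3 fell, where 27.7% of all genes were called and 14% were lower. Fcna (−1.54) and Cdh5 (−1.27) were again among those that fell, with Cd38 (−0.65).

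A list of 10 further transcription factor genes left out the members Nr1h3, which was called lower in WT CD-HFD, and Id3, which was not called. Of these 10 genes, 6 rose in WT CD-HFD and 0 fell (23.5% of all genes higher, 24.1% lower). Spi1, which encodes PU.1, rose by 2.91, Irf8 by 1.87 and Runx1 by 3.54. Spic, a haem-induced factor of iron-recycling macrophages, was 0.65 and Maf 0.42, and neither was called. How far the rise of pan-macrophage and monocyte genes enters these changes was not tested.

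Of 20 genes for niche signals and their receptors, 5 rose and 5 fell in WT CD-HFD, where 23.5% of all genes were higher and 24.1% lower. Those that fell were the Notch ligands Dll4 (−1.29) and Dll1 (−0.75), the BMP ligands Bmp10 (−1.66) and Bmp2 (−0.81), and the target Id2 (−0.84). Those that rose were Csf1 (1.56) and Il34 (1.05), both ligands of Csf1r, Csf1r itself, Tgfb1 (1.17) and Acvrl1 (1.38), a receptor for BMP ligands. Id1, a target of the same BMP signals as Id3, was 0.62 and was not called. On CD-LFD 1 rose and 5 fell in WT (27.7% of all genes called, 14% lower), with Dll4 at −1.44, Bmp2 at −1.05 and Bmp6 at −1.15. Sinusoidal endothelial genes fell beside them, 7 of 10 with 1 higher in WT CD-HFD, and the list's summed level ran from 296 to 383 CPM in WT control and from 183 to 307 CPM in WT CD-HFD. Whether endothelial RNA accounts for any change of the ligands was not tested.

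Of 12 partners and targets of the liver X receptor, 5 fell and 1 rose in WT CD-HFD, where 24.1% of all genes were lower and 23.5% higher. Srebf1 (−2.19), the lipogenic factor, Abca1 (−1.16), Abcg5 (−1.17) and Abcg8 (−1.12), sterol exporters, and Rxra (−0.69), the receptor's partner, fell. Abcg1 (1.77), a sterol exporter of macrophages, rose. Hepatocytes express most of this list, and the 10 hepatocyte genes all fell in the same comparison, with a median of −0.86 beside −0.07 for all genes. Whether hepatocyte RNA accounts for any change of this list was not tested.

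Because the pan-macrophage genes rose, each member was also set against the mean log2 CPM of the 12 pan-macrophage genes. This measures a member's RNA in whole liver per unit of macrophage RNA. For Id3 and Nr1h3, which hepatocytes and other liver cells also express, it does not give the RNA of Kupffer cells alone. Other leukocytes also express part of the pan-macrophage list, such as Itgb2, and their part in the mean was not tested. That mean was 3.48 ± 0.26, 4.49 ± 0.26 and 6.17 ± 0.28 (SD, n = 6) in WT on control, CD-LFD and CD-HFD. It was 3.40 ± 0.76, 4.64 ± 0.22 and 6.34 ± 0.12 in Ripk3KO, and 3.26 ± 0.42, 4.72 ± 0.28 and 6.45 ± 0.15 in MlklKO. On this scale all 9 tested members fell in WT CD-HFD against control, from −1.61 ± 0.30 for Adgre1 (adjusted p = 1.69e-06) and −2.49 ± 0.35 for Cd5l (adjusted p = 3.42e-09) to −4.24 ± 0.44 for Clec4f (adjusted p = 3.92e-13) and −8.45 ± 0.58 for Cd163 (adjusted p = 3.22e-18). However, 89.7% of all genes were called there, 87.5% lower, and the median of all genes was −2.74, because any gene that did not rise with macrophage RNA falls on this scale. With Csf1r alone as the measure of macrophage RNA, Adgre1 was −0.46 and was not called (adjusted p = 0.20), and the other 8 members were. Adgre1 and Cd5l lay above the all-gene median of −2.74, and Clec4f, Marco (−5.00), Timd4 (−7.16) and Cd163 below it.

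From CD-LFD to CD-HFD in WT, 8 members fell relative to the pan-macrophage mean, where 87.2% of all genes were called and 86.7% were lower, and Adgre1 was −0.09 ± 0.29 (adjusted p = 0.772). The WT fall of Marco on this step, −1.19 (adjusted p = 0.0469), was not called with Csf1r alone (−0.43, adjusted p = 0.491), with the summed counts of the 12 genes (−1.09, adjusted p = 0.0904) or without any of 8 single libraries. That of Cd5l, −1.05, was not called with Csf1r alone (−0.35, adjusted p = 0.393). In MlklKO, Adgre1 rose relative to it by 0.9997 ± 0.38 (adjusted p = 0.0144), where 79% of all genes were called and 0.653% were higher, and 5 other members fell (78.3% of all genes lower). Without MlklKO CD-HFD replicate 4 that value of Adgre1 was 0.60 and was not called (adjusted p = 0.183). In Ripk3KO, Adgre1 was 0.54 ± 0.39 (adjusted p = 0.195), with 80.6% of all genes called and 80.5% lower, and 6 members fell. Of these, 4 were called with Csf1r alone and 5 with the summed counts. Alternatives of this step called 10732 (Csf1r alone) to 11900 of all genes, beside 11986. Cd163 was −0.31 (adjusted p = 0.773) without CD-LFD replicate 2, against −2.60 with it. Cd5l was −0.24 ± 0.44 (adjusted p = 0.61) in Ripk3KO and −0.36 ± 0.44 (adjusted p = 0.453) in MlklKO on the same step. On CD-LFD against control all 9 fell in each genotype, where 66.9% of all genes were lower in WT (70.4% called), 68.8% in Ripk3KO (71.8%) and 72% in MlklKO (73.9%). With Csf1r alone 5 of the 9 were called in each genotype, and the genes called of the 14862 tested were also fewer, at 3327 in WT, 5877 in Ripk3KO and 7394 in MlklKO, against 10461, 10674 and 10980. With the summed counts of the 12 genes, 8 members were called in WT, 6 in Ripk3KO and 8 in MlklKO, beside 7288, 5253 and 8782 of all genes. In Ripk3KO, Clec4f (−0.78, adjusted p = 0.215), Id3 (−0.94, adjusted p = 0.141) and Nr1h3 (−0.74, adjusted p = 0.055) were then not called. On CD-HFD against control 9 fell in Ripk3KO and 8 in MlklKO, where 87% of all genes were lower in each, of 89% and 88.6% called. The Ripk3KO fall of Adgre1, −1.06 (adjusted p = 0.00258), was −0.25 (adjusted p = 0.53) with Csf1r alone and −0.43 (adjusted p = 0.172) with the summed counts of the 12 genes. Between genotypes no member was called on this scale, where all-gene calls against WT made up 1.15%, 0.168% and 0.114% in Ripk3KO and 13.5%, 0.471% and 0% in MlklKO, each in the order control, CD-LFD, CD-HFD. With the summed counts, Adgre1 was called lower in MlklKO control livers, at −0.84 (adjusted p = 0.0403), and without MlklKO control replicate 1, Id3 was, at −1.28 (adjusted p = 0.0203).

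**Figure D4:**
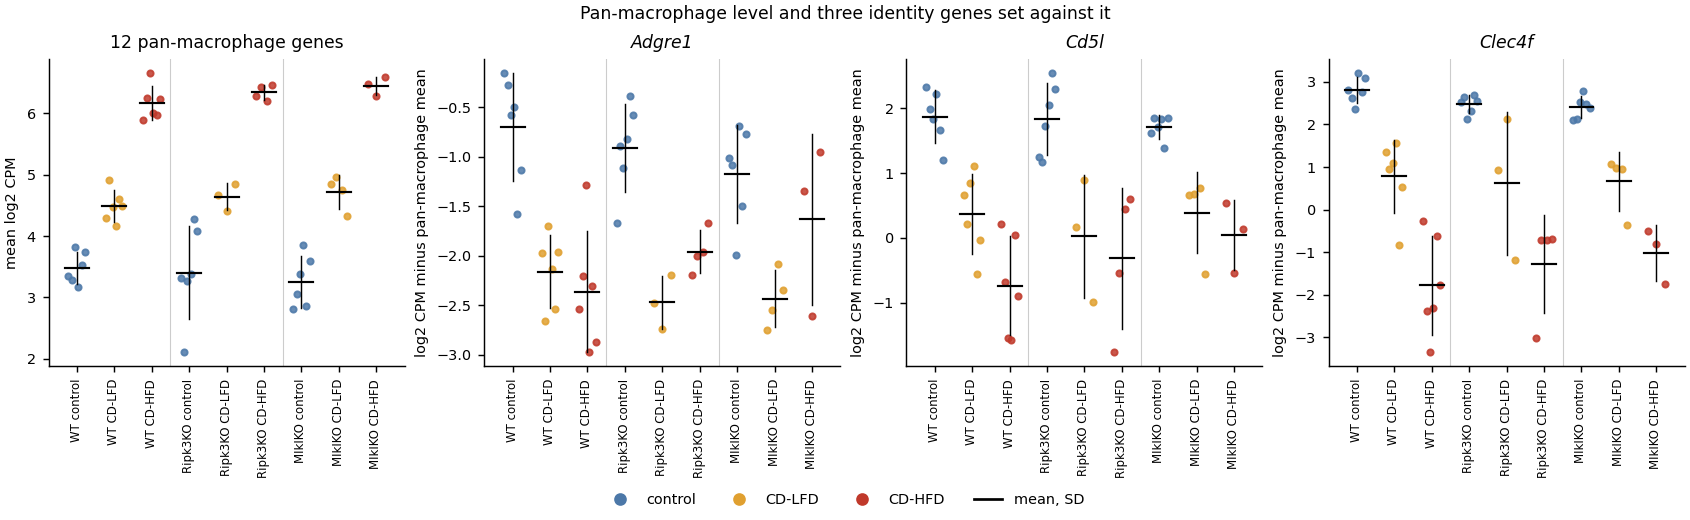
Mean log2 CPM of 12 pan-macrophage genes (left panel) and log2 CPM of Adgre1, Cd5l and Clec4f minus that mean (other panels) in every library over the 9 groups, with bars for mean and SD. The pan-macrophage mean rises from 3.48 to 6.17 in WT, and Clec4f falls furthest of the 3 genes against it in WT, by a fitted change of −4.24.

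Genes with the most similar pattern were sought among 11089 genes other than the members, by Pearson correlation of log2 CPM over all 44 libraries, which share the diets. Clec4f was most like Fcna (r = 0.820), followed by Colec10 (0.727) and Vipr1 (0.692). Cd163 was most like the liver genes Serpina1e (0.948), Tfr2 (0.931) and Masp2 (0.911), and Timd4 like Ces2a (0.882) and Mup15 (0.879). Marco was most like Cdh5 (0.796), Vsig4 like Cd38 (0.682) and Mrc1 (0.657), and Nr1h3 like F10 (0.848). Cd5l and Adgre1 were both most like Sdc3 (0.795 and 0.913), and Id3 was most like Id2 (0.703). These values describe the pattern over all libraries and were not taken apart into parts within and between groups.

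Across the 9 groups, the members fell into different orders of mean level. Cd163 had its 3 control groups at the top (17.6, 13.2 and 9.79 CPM in Ripk3KO, MlklKO and WT), a step above the highest diet group, Ripk3KO CD-LFD at 1.29 CPM. The 3 controls differed among themselves by less than the SD of Ripk3KO (11.2 CPM). Timd4 had the same step, from 2.75 CPM in MlklKO control to 0.335 CPM in MlklKO CD-LFD. Adgre1 had its 3 CD-HFD groups at the top, with 16.4 ± 12.6 CPM in WT above 6.94 ± 2.13 CPM in WT control. Its 6 lower groups lay between 4.46 and 6.94 CPM, each step within the SD of the group above it. Cd5l ran from 27.2 ± 12.5 CPM in Ripk3KO CD-LFD to 95.9 ± 38.5 CPM in MlklKO CD-HFD, with each step within the SD of the group above it.

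Within groups, some members varied together from mouse to mouse. After the mean of each group was taken away, Cd5l and Vsig4 correlated at r = 0.889 over the 44 libraries, Cd5l and Clec4f at 0.807 and Clec4f and Vsig4 at 0.764. Mice high in one of these genes for their group were thus mostly high in the others. Adgre1 followed the pan-macrophage mean (r = 0.721). Timd4 and Cd163, which correlated at 0.854 over all libraries, correlated at 0.344 within groups. Both held only a few counts in most libraries on the choline-deficient diets, so counting noise enters the latter value. The within-group correlations of Id3 with other members ran from −0.262 (Folr2) to 0.0752 (Timd4). The genes of a library share its depth and the cell makeup of its piece of liver, so these values are a description.

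**Figure D5:**
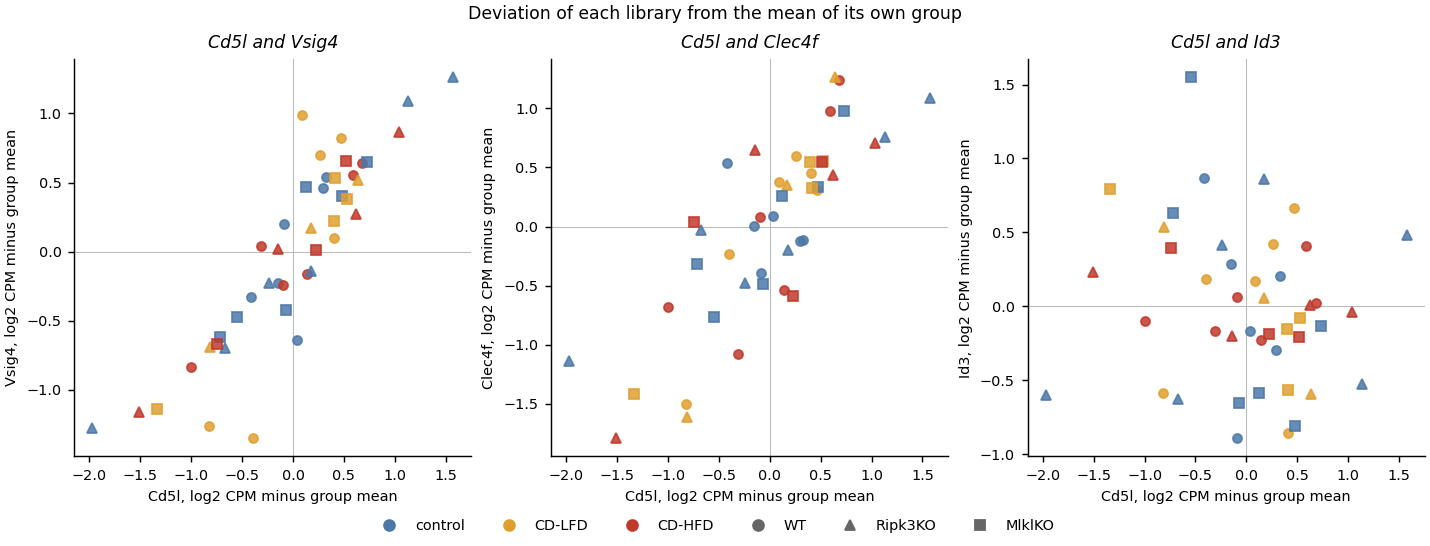
Log2 CPM of Vsig4, Clec4f and Id3 (y axes) against that of Cd5l (x axes) in the 44 libraries, each as the deviation from the mean of its own group, with colour for diet and shape for genotype. Vsig4 (r = 0.889) and Clec4f (r = 0.807) rise along the diagonal with Cd5l, and Id3 (r = −0.153) does not.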

How the data were processed

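RNA from 44 mouse livers was sequenced with a strand-marking kit, per the labels' protocols. The authors deposited raw counts of reads per Ensembl gene. The submitters' processing notes name FastQC, STAR, HTSeq, edgeR, limma and GRCm39 without versions or roles, and the strand setting of the counting is not given in the sources used here. Of 35249 genes, 34373 matched a symbol, and the other 876 held 0.0838% of counts.

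Counts were analysed with edgeR 4.0.16 in R 4.3.3 (filterByExpr with a minimum count of 10, TMM scaling, quasi-likelihood test), with 1 mean for each of 9 groups fitted to all 44 libraries. The 14862 genes tested held 99.8% of counts. TMM factors ran from 0.799 to 1.34. Log2 CPM used a prior count of 2. A second fit added the mean log2 CPM of 12 pan-macrophage genes to the offset. P-values were adjusted over all genes tested, and the bounds on folds cover counting error only. The labels give each mouse a genotype and a diet but no litter, cage or batch, so p-values measure the spread between these mice. Exon lengths and overlaps came from GENCODE M21 (GRCm38). The code was tested on simulated data.

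The members and lists were chosen with earlier results of these data known. The text names all members. From each list it names up to 3 called genes per direction with the largest change in WT CD-HFD (mean log2 CPM not under 0), and Csf1r, Spic, Id1, Ccr2, Trem2, Gpnmb, Ripk3 and Mlkl. Other list genes named were chosen after their values were seen. For likeness it uses the 3 genes with the highest correlation. Alternatives were RLE factors, library size only, no filter, DESeq2 1.42.0, only the compared groups, a replicate block, a clock covariate, WT control replicates 5 and 6 left out, single libraries left out, other macrophage offsets and, chosen after seeing the data, libraries of one clock phase.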

Additional observations from a re-analysis of the deposited data

Results flagged for a closer look

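In 70 groups of 4 or more libraries, 5 values of the members stood far from the others of their group, where chance alone gives about 1 in 20 groups. Marco stood high in WT control replicate 5 (34.7 CPM), in WT CD-HFD replicate 5 (6.20 CPM) and in MlklKO CD-LFD replicate 3 (1.76 CPM). Adgre1 stood high in WT CD-HFD replicate 3 (41.3 CPM), and without that library its rise in WT CD-HFD was not called. Cd5l stood low in MlklKO CD-LFD replicate 4 (13.4 CPM), a library that also held the lowest Clec4f (15.3 CPM) and Vsig4 (4.32 CPM) of its group.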

How the results depend on the processing

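Of the 30 called differences of members, 19 stayed called with the same sign in every alternative that gave a value, among them each fall of Timd4 and Cd163 against control (with only the compared groups fitted, Timd4 did not pass the filter in the 2 WT comparisons with control), and 494 of 536 alternative values did. Per unit of macrophage RNA, 52 of 73 did, and 902 of 948 values. Within one clock phase 3 members were called in WT CD-HFD against control, in place of 6. All-gene calls in that comparison ran from 4895 to 8161 over the alternatives, beside 7082. In WT CD-HFD against CD-LFD 1 was called with RLE factors, library size only, no filter, the clock covariate or only the compared groups, and 1 to 2 with single libraries left out. Of all genes, 2245 (clock covariate) to 3558 (library size only) were called there, beside 3140. In MlklKO CD-HFD against CD-LFD 2 were called with RLE factors, library size only, no filter or DESeq2, 3 with only the compared groups, and 1 to 2 with single libraries left out. All-gene calls there were 3516 with RLE factors and 5163 with library size only, beside 3523. In MlklKO against WT on control diet 0 were called with the clock covariate, without WT control replicates 5 and 6, with only the compared groups or within one clock phase, and 0 to 1 with single libraries left out. The fit of only the compared groups called 1739 of all genes, in place of 4029. In Ripk3KO CD-HFD against CD-LFD 3 were called, in place of 2, with DESeq2 or only the compared groups. The latter fit called 2821 of all genes, in place of 1312. Leaving out single libraries gave 0 to 2 members there and 0 to 1 for the difference of the CD-HFD effect in MlklKO. With Csf1r alone as the macrophage measure, 5 members were called on CD-LFD in each genotype, in place of 9, beside 3327 of all genes in place of 10461 in WT. With the summed list, 1 was called in MlklKO control against WT (0 to 1 with single libraries left out), and leaving out libraries gave 3 to 6 in Ripk3KO CD-HFD against CD-LFD, where Marco ran from −2.51 to 1.32. Over the alternatives these comparisons called 1090 to 4020 and 10732 to 11900 of all genes, in that order. With library size only, Nr1h3 turned to 0.0377 in WT CD-HFD and 0.27 in MlklKO CD-HFD, where the share of higher calls among all called genes was 87.0% in WT, against 49.4% with TMM. For WT CD-LFD that share was 84.9% against 49.6%. The cause of the other changes was not tested.

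Same-numbered libraries did not deviate together (42 of 146 pairs over 0.1, median −0.0114), so the numbers were not taken to pair mice. With the replicate block, 2 members in place of 3 were called in Ripk3KO CD-LFD, where Marco was −1.84 (adjusted p = 0.0937), and the number called was the same in the other comparisons.

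Counts over all genes moved further. WT CD-LFD called 4117 genes, with 1421 to 6381 in alternatives. Ripk3KO CD-LFD called 3576 (down to 1390), Ripk3KO CD-HFD against CD-LFD 1312 (510 to 2821) and MlklKO CD-HFD against CD-LFD 3523 (down to 1934). On control diet Ripk3KO called 665 (45 to 1024) and MlklKO 4029 (down to 1739). On CD-LFD these were 164 (7 to 276) and 381 (1 to 873), and on CD-HFD 56 (15 to 252) and 0 (up to 2). Differences of the CD-HFD effect were 71 (17 to 197) and 612 (195 to 1265), and of the CD-LFD effect 4 (0 to 30) and 1256 (741 to 1868). Depth limits Folr2, and Timd4 and Cd163 on the choline-deficient diets, to a few counts in most libraries.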
